A study of Homo sapiens with 7 samples.

Results

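The sterol and fatty acid synthesis genes are 33 members, listed by name among the 26173 genes of the FPKM table, with no measured value in the rule. They comprise 16 enzymes of mevalonate and sterol synthesis, 7 genes of the SREBP system that controls them, 8 genes of fatty acid synthesis and desaturation, and 2 genes of sterol transport and glycerolipid synthesis. FPKM, a count of fragments scaled by transcript length and sequencing depth, is an mRNA level and came from 3 RNA-seq replicates merged into 1 value per gene. Transcription start sites (TSSs) were called by Start-seq, which sequences the 5' ends of short capped nuclear RNAs, from replicate 1 of 2 libraries. Of the 10391 gene TSSs called, 33 were assigned to members. An upstream antisense TSS (uaTSS) is a start on the opposite strand upstream of the gene TSS, and a downstream antisense TSS (daTSS) one on the opposite strand downstream of it.

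All libraries came from T47D/A1-2 cells, named T-47D in the sample labels. These are luminal breast cancer cells of the T47D line, engineered for high levels of a rat glucocorticoid receptor and for luciferase expressed from an MMTV promoter in the genome. Culture was in medium with 10% serum, followed by 24 hours or more in 5% charcoal-stripped serum, and no other condition was measured, so every level below belongs to that state of the culture. Luminal markers were high, from 44.1 FPKM for ESR1 to 1142 FPKM for KRT8, while the basal keratins KRT5 and KRT14 were listed at 0. VIM, CDH2, PTPRC and COL1A2 were below 1 FPKM, and COL1A1, a fibroblast collagen, was at 8.82 FPKM. The merged table has no replicate error and the call lists no read counts, so depth is unknown and no difference in level between genes could be tested.

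Cells build cholesterol from acetyl-CoA through the mevalonate pathway, and build saturated and monounsaturated fatty acids from the same precursor. Both routes are controlled by the sterol regulatory element-binding proteins (SREBPs), transcription factors held in the endoplasmic reticulum membrane by SCAP and INSIG proteins. When sterols are low, SCAP carries the SREBP to the Golgi, where the site-1 and site-2 proteases release its active part. SREBPs bind sterol response elements in promoters, commonly beside bound NF-Y, which recognises the CCAAT box, and Sp1, which recognises the GC box.

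Promoter sequences are shown first because the results below refer back to their CCAAT boxes. The 5 stretches begin 200 nt before the called gene TSS and are written 5' to 3' on the gene strand. They end at the base before the gene TSS for MVK, EBP and SREBF2, and 71 and 13 nt before it for HMGCS1 and DHCR7. Annotated transcripts start inside or upstream of each stretch. The SREBF2 stretch lies wholly downstream of the first annotated SREBF2 start at 42229109, and the MVK stretch downstream of an annotated MVK start at 110011085. Capitals mark CCAAT on either strand (read as ATTGG on the other strand). HMGCS1, with the daTSS closest to its gene TSS, was chosen by rule. The same rule also named FASN, whose promoter holds a sterol response element, and SQLE, with the most distant daTSS, and neither is shown. The promoters of MVK, DHCR7 and EBP, with several CCAAT boxes, and the stretch before the SREBF2 call, with none, were chosen after their contents were seen. The hg19 positions are chr5:43313585-43313714 on the minus strand for HMGCS1 and chr12:110011399-110011598 on the plus strand for MVK. They are chr11:71159452-71159639 on the minus strand for DHCR7, chrX:48380017-48380216 on the plus strand for EBP, and chr22:42229315-42229514 on the plus strand for SREBF2.
HMGCS1: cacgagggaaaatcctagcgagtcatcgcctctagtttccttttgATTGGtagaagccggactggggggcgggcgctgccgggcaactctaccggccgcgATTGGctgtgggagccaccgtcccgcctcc
MVK: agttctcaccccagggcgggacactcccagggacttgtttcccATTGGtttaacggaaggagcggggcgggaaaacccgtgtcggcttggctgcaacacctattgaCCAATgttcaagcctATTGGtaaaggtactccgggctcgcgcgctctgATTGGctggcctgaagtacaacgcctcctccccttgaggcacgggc
DHCR7: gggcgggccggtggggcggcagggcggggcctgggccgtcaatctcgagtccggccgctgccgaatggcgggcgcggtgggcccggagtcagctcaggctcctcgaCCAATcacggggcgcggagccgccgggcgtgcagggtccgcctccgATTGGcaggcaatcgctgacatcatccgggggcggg
EBP: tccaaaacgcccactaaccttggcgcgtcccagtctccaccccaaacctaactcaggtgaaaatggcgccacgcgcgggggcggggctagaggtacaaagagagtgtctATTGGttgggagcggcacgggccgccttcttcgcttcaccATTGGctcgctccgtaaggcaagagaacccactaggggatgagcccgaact
SREBF2: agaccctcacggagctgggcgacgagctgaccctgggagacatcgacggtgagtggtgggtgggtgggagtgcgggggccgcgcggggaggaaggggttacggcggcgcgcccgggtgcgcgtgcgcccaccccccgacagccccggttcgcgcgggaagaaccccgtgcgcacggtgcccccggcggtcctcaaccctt

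These lines show the repeated ATTGG and CCAAT in HMGCS1, MVK, DHCR7 and EBP, and their absence from the SREBF2 stretch. Sequence was read from the GRCh37 chromosomes.

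All 33 genes were expressed. Each reached at least 1 FPKM, as did 46.9% of all genes in the table, and the median over members was 62.3 FPKM (quartiles 27.6 and 109.7) against 0.53 FPKM over all genes. More than 100 FPKM was reached by 11 members, or 33.3% of them (exact Clopper-Pearson 95% interval 18.0% to 51.8%), and by 3.51% of all genes. Among the 31 members with a gene TSS, 22 lay above 40.2 FPKM, the level that 25.0% of the 9774 genes with an assigned gene TSS exceeded. These intervals here and below cover the counting of genes or TSSs and not the variation between libraries.

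Along the sterol pathway, levels spanned 11.2-fold, with a median of 80.8 FPKM over the 16 enzymes. The early steps were at intermediate levels. ACAT2, the cytosolic thiolase that joins acetyl-CoA units, was at 77.1 FPKM, and HMGCS1, which makes HMG-CoA, was at 46.2 FPKM. Mevalonate kinase (MVK), phosphomevalonate kinase (PMVK) and mevalonate diphosphate decarboxylase (MVD), which act in succession, were at 42.9, 107 and 64.1 FPKM. The isoprenoid steps stood higher, at 198 FPKM for IDI1, the isopentenyl diphosphate isomerase, 177 FPKM for FDPS, the farnesyl diphosphate synthase, and 192 FPKM for FDFT1, the squalene synthase.

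After squalene, levels were uneven. SQLE, which epoxidises squalene, was at 84.5 FPKM, LSS, which cyclises the epoxide to lanosterol, at 31.0 FPKM, and CYP51A1, the lanosterol demethylase, at 26.9 FPKM. TM7SF2, a sterol C14 reductase, had the highest level of the 16 at 213 FPKM, and HSD17B7, a 3-ketosteroid reductase, had the lowest at 19.0 FPKM. The remaining enzymes were NSDHL, a C4 decarboxylase, at 62.3 FPKM, EBP, the sterol isomerase, at 109.6 FPKM, and DHCR7, which makes cholesterol from its immediate precursor, at 118 FPKM. The annotation names 8, 3, 3 and 2 pseudogenes after FDPS, IDI1, CYP51A1 and HSD17B7. How reads were divided between these genes and their copies was not tested, so their levels are uncertain. ACAT2, IDI1, FDPS, CYP51A1 and TM7SF2 are each listed under a locus shared with another gene, TM7SF2 with VPS51. The division of fragments within these loci was not tested either, so the rank of TM7SF2 is also uncertain.

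The 7 SREBP genes had a median of 52.6 FPKM. SREBF1, which encodes the SREBP linked mainly to fatty acid synthesis, was at 79.3 FPKM and SREBF2, linked mainly to sterol synthesis, at 69.4 FPKM. The escort protein gene SCAP was at 20.5 FPKM. Of the retention proteins, INSIG1, itself an SREBP target, was at 52.6 FPKM and INSIG2 at 10.5 FPKM. The site-1 protease gene MBTPS1 was at 109.7 FPKM and the site-2 protease gene MBTPS2 at 22.8 FPKM. MBTPS1 was thus the only one of the 7 above 100 FPKM.

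The fatty acid genes separated into an abundant trio and the rest. SCD, the stearoyl-CoA desaturase, had the highest level of all 33 members at 528 FPKM, the 99.8th percentile of all genes. FASN, the fatty acid synthase, was at 194 FPKM and ACLY, which supplies cytosolic acetyl-CoA from citrate, at 179 FPKM. The other 5 lay between 25.3 and 53.8 FPKM. They were ACSS2 (37.2 FPKM), which makes acetyl-CoA from acetate, ACACA (41.3 FPKM), the acetyl-CoA carboxylase, ELOVL6 (27.6 FPKM), which elongates palmitate, and the desaturases FADS1 (25.3 FPKM) and FADS2 (53.8 FPKM). SCD carries 1 pseudogene named after it.

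The 2 genes outside both synthetic routes were the lowest of the 33. STARD4, a cytosolic sterol carrier, was at 8.86 FPKM and LPIN1, a phosphatidate phosphatase, at 4.68 FPKM. Of 11 further genes of the pathways, 9 reached 1 FPKM, with a median of 29.7 FPKM over all 11. ELOVL1, a fatty acid elongase, was the most abundant of these at 123 FPKM. ME1, which supplies NADPH, and ACACB, the mitochondrial acetyl-CoA carboxylase, were at 0.041 and 0.42 FPKM.

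A gene TSS was assigned to 31 of 33 members, or 93.9% (79.8% to 99.3%), against 37.3% of all genes and 74.6% of the genes at 1 FPKM or above. ACSS2 and ACACA each had 2. The members without a call were HSD17B7 and INSIG2, at 19.0 and 10.5 FPKM, while STARD4 and LPIN1 had calls at lower levels. The 30 nt that follow either annotated start of HSD17B7, at 162760492 and 162760513 on chromosome 1, occurred at 2 places in GRCh37, the other on chromosome 10. The same length after each of the 33 member gene TSSs, and after the annotated start of INSIG2, occurred at 1 place. The authors called TSSs from uniquely mapped fragments, and the part of the duplicated sequence in the missing call was not tested.

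The calls lay close to annotated starts. A start in the annotation was within 50 nt of 29 of 33 member gene TSSs (87.9%, 71.8% to 96.6%), as for 74.7% of all gene TSSs, and 8 fell on the annotated nucleotide itself, beside 21.8% of all gene TSSs that had an annotated start within 1000 nt. Over 500 nt away were 2, beside 4.64% of those, the upstream ACSS2 call and SCD. The SCD call at 102106157 on the plus strand of chromosome 10 lay 833 nt upstream of the annotated start at 102106990, outside any CpG island. Whether this call is the promoter of SCD cannot be told from the call list, so what is said below of the SCD gene TSS describes the sequence and antisense calls at that position. The ACSS2 calls at 33463706 and 33464415 on chromosome 20 were 709 nt apart, and the second fell on an annotated start. The ACACA calls at 35716011 and 35766913, on the minus strand of chromosome 17, were 50902 nt apart and marked separate promoters. For SREBF2 the call at 42229515 on chromosome 22 lay 7 nt downstream of the second annotated start, which is 399 nt downstream of the first. For LPIN1 only the start at 11886769 on chromosome 2 was called, and those at 11817721, 11864460 and 11864478 were not.

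Antisense starts upstream of these promoters were common. A uaTSS was called at 22 of 33 member gene TSSs (66.7%, 48.2% to 82.0%), beside 53.1% of all 10391 gene TSSs. Sterol synthesis genes had 10 of 15, the SREBP genes 5 of 6, the fatty acid genes 6 of 10, and STARD4 had a uaTSS while LPIN1 did not. The median distance from gene TSS to uaTSS was 318.5 nt over members and 200 nt over all gene TSSs with a uaTSS. Of the 22 distances, 11 exceeded 329.5 nt, which 25.0% of all uaTSS distances exceed. They ranged from 64 nt at the upstream ACACA promoter to 900 nt at FASN.

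Within the sterol pathway the uaTSSs lay between 209 nt upstream at IDI1 and 672 nt at PMVK, with ACAT2, HMGCS1 and FDPS at 242, 252 and 292 nt. Among the SREBP genes, both protease genes had near uaTSSs, at 141 nt for MBTPS1 and 143 nt for MBTPS2. The SREBP genes themselves had distant ones, at 687 nt for SREBF1 and 838 nt for SREBF2, and INSIG1 lay between at 225 nt. The SREBF2 uaTSS was 432 nt upstream of the first annotated start, which had no call of its own. As the paper describes it, overlapping search windows of the same gene were merged and a single gene TSS was called per window. The missing call therefore does not show that this start was unused. A uaTSS began inside the CpG island around the gene TSS at 17 of 22 members, and 80.3% of all uaTSSs with such an island did so. The 5 outside were at SQLE, FDPS, EBP, STARD4 and SREBF1, between 8 and 434 nt beyond the upstream edge.

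**Figure D1:**
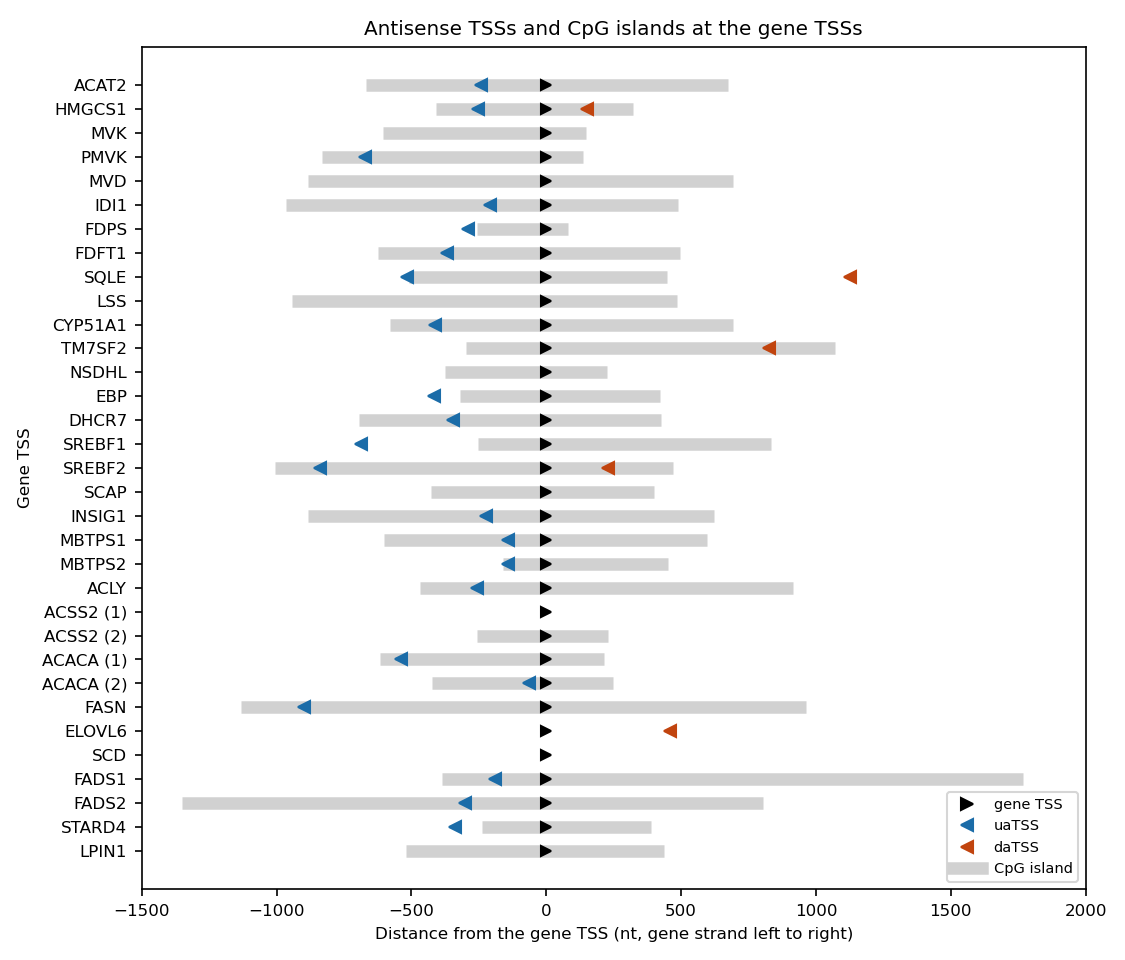
Each row is 1 of the 33 member gene TSSs, aligned at 0 nt on the x axis with the gene running to the right, and grey bars are CpG islands. Blue arrowheads mark 22 uaTSSs, 64 to 900 nt upstream, and red arrowheads mark 5 daTSSs, 151 to 1126 nt downstream; the upstream ACSS2 call, ELOVL6 and SCD have no island.

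A daTSS was called at 5 of 33 member gene TSSs (15.2%, 5.11% to 31.9%), beside 28.4% of all gene TSSs and 2 of the 7 gene TSSs of the further pathway genes. They were at HMGCS1 (151 nt downstream), SREBF2 (229 nt), ELOVL6 (459 nt), TM7SF2 (826 nt) and SQLE (1126 nt). Their median of 459 nt is close to the 507 nt over all daTSSs, with only 5 distances behind it. Levels of these genes ranged from 27.6 FPKM for ELOVL6 to 213 FPKM for TM7SF2.

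The 5 daTSSs lay in different parts of their genes. The HMGCS1 daTSS at 43313363 on chromosome 5 lay in intron 1, and the TM7SF2 daTSS at 64880170 on chromosome 11 in exon 2. The SREBF2 daTSS at 42229744 on chromosome 22 lay in exon 1 of the transcript that starts beside the call. The ELOVL6 daTSS at 111119832 on chromosome 4 was on the plus strand, 23 nt upstream of the annotated start of ELOVL6 at 111119809. The ELOVL6 gene TSS itself was called 482 nt upstream of that start, within 44 nt of the start of another annotated transcript. Without ELOVL6, an alternative chosen after seeing the data, 4 of 32 member gene TSSs had a daTSS (12.5%), beside 28.4% of all. The SQLE daTSS lay in exon 1, 679 nt beyond the island, whereas those of HMGCS1, TM7SF2 and SREBF2 were inside islands reaching 322, 1069 and 469 nt downstream.

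The bases at 4 of these daTSSs are shown so that the start itself can be read, on the antisense strand and with capitals for the base before the start and the start. The positions are chr5:43313348-43313373 on the plus strand for HMGCS1, chr11:64880160-64880185 on the minus strand for TM7SF2, chr22:42229734-42229759 on the minus strand for SREBF2, and chr4:111119817-111119842 on the plus strand for ELOVL6.
HMGCS1: cagagccccagctcCTtcgggcctag
TM7SF2: accttgcgcgccggCAgtaggtagag
SREBF2: agtgacaggtgcgaCGcgcggtcgcg
ELOVL6: tctcctccccctcgTGcgatttgaga

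Over all 5 daTSSs, 4 began with a pyrimidine followed by a purine, the usual initiator dinucleotide, and HMGCS1 was the exception. The share over all daTSSs was 66.9%. Of the 22 member uaTSSs, 15 had that form, beside 64.7% of all uaTSSs.

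Members fell into all 4 antisense classes. Both a uaTSS and a daTSS were called at HMGCS1, SQLE and SREBF2, 9.09% of member gene TSSs (1.92% to 24.3%) against 17.5% of all. Neither was called at 9 (27.3%, 13.3% to 45.5%) against 35.9% of all. These 9 were MVK, MVD, LSS, NSDHL, SCAP, LPIN1, SCD and both ACSS2 calls, with levels from 4.68 to 528 FPKM. MVK and NSDHL each had the gene TSS of another gene upstream on the opposite strand, described next, which is not counted as a uaTSS here.

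A divergent gene TSS, that of another gene on the opposite strand within 1000 nt upstream, was called at 3 member gene TSSs, or 9.09% (1.92% to 24.3%) against 11.5% of all. MVK (gene TSS at 110011599 on chromosome 12) faced MMAB, an enzyme of cobalamin metabolism, across 257 nt, at 42.9 and 21.9 FPKM. NSDHL (151999525 on chromosome X) faced CETN2, a centrin gene, across 247 nt, at 62.3 and 98.7 FPKM. The upstream ACACA promoter faced TADA2A, a histone acetyltransferase complex subunit, across 622 nt, at 41.3 and 14.1 FPKM. No uaTSS was called at MVK or NSDHL, nor at any of the 3 partners, while ACACA had one at 64 nt. The partner's gene TSS is itself a start on the opposite strand upstream, so MVK and NSDHL did not lack such a start. Among gene TSSs without a divergent gene TSS, a uaTSS was called at 21 of 30 of members (70%), beside 57.9% of all.

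FADS1 and FADS2 had overlapping starts on opposite strands. The FADS2 gene TSS at 61583925, plus strand, and the FADS1 gene TSS at 61584340, minus strand, lay 415 nt apart on chromosome 11, with the FADS2 call inside the FADS1 transcription unit. Both fell in 1 CpG island of 2155 bp, and a uaTSS was called for each, at 189 nt for FADS1 and 300 nt for FADS2. The FADS2 uaTSS at 61583625 was on the FADS1 strand, beside an annotated FADS1 start at 61583620. The FADS1 uaTSS at 61584529 was on the FADS2 strand, 604 nt downstream of the FADS2 gene TSS. Whether these 2 calls are sense starts of the other gene was not tested. FADS2 was 2.13-fold above FADS1. Both are listed under 1 locus in the expression table, as are 13 members in all with some other gene, 8 of them with a gene above 1 FPKM. How the RNA-seq estimate divides fragments between such genes was not tested.

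CpG islands covered 30 of 33 member gene TSSs (90.9%, 75.7% to 98.1%), beside 82.8% of all gene TSSs. All 15 gene TSSs of sterol synthesis and all 6 of the SREBP genes lay in one, and the 3 outside were ELOVL6, SCD and the upstream ACSS2 call. Member islands ran from 336 bp at FDPS to 2155 bp at FADS1 and FADS2, with a median of 1104 bp against 924 bp over all. GC content in the 100 nt around the start had a median of 69% over members and 68% over all gene TSSs.

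A CCAAT box in either direction lay within 250 nt before to 50 nt after 19 of 33 member gene TSSs (57.6%, 39.2% to 74.5%), beside 35.3% of all gene TSSs. Sterol synthesis promoters held most of them, 12 of 15 (80.0%, 51.9% to 95.7%), with ACAT2, PMVK and CYP51A1 lacking it. Of the SREBP genes only INSIG1 had it (1 of 6, 16.7%, 0.42% to 64.1%), and of the fatty acid promoters ACLY, FASN, SCD, FADS1 and FADS2 (5 of 10, 50%, 18.7% to 81.3%), the SCD box being at the distant call. Without the gene TSSs over 500 nt from an annotated start, an alternative chosen after seeing the data, 18 of 31 members' gene TSSs held the box (58.1%), beside 35.7% of all. Between STARD4 and LPIN1, STARD4 had it. Whether the role groups differ was not tested. The 11 further pathway genes had 7 gene TSSs, 3 of them with a CCAAT box.

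Several promoters held it repeatedly. At least 2 CCAAT boxes that share no base were present at 12 of 33 (36.4%, 20.4% to 54.9%), beside 12.6% of all gene TSSs. MVK and NSDHL, the promoters shared with a close divergent gene, held 5 each, and MVD, FDPS and EBP held 3. In the MVK sequence above, 4 of the 5 can be read, at 157, 94, 79 and 46 nt before the gene TSS. DHCR7 had them at 94 and 48 nt, EBP at 212, 91 and 51 nt, and HMGCS1 at 155 and 100 nt. Of the 42 matches, counting overlapping ones, 29 read as ATTGG on the gene strand (69.0%), as did 50.1% of the 5681 matches over all gene TSSs.

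The sterol response element TCACNCCAC was present in 1 of 33 promoters (3.03%, 0.077% to 15.8%), beside 1.13% of all. In FASN it began 114 nt before the gene TSS, with the CCAAT box at 63 nt and 8 GC box matches in the window, counting overlapping ones. From 500 nt before to 100 nt after the start, HMGCS1 also held the element, at 259 nt, which made 2 of 33 (6.06%) beside 2.52% of all. With 1 mismatch allowed, 7 of 33 promoters matched (21.2%, 8.98% to 38.9%), beside 23.4% of all: MVK, IDI1, FDPS, FDFT1, INSIG1, FASN and the downstream ACSS2 call. A match in letters is not a measured binding site, and a promoter without one was not examined for other forms of the element.

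GC boxes (GGGCGG on either strand) were present at 26 of 33 member gene TSSs (78.8%, 61.1% to 91.0%), beside 72.4% of all. All 15 sterol synthesis promoters had at least 1, as did 3 of 6 SREBP genes (SREBF1, SCAP and INSIG1) and 6 of 10 fatty acid gene TSSs. The windows at the SREBF2, MBTPS1 and MBTPS2 calls held neither a GC box nor a CCAAT box. The same held for ELOVL6 and the upstream ACSS2 call. The SREBF2 window lies downstream of the first annotated SREBF2 start at 42229109, so the sequence before that start was outside it.

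**Figure D2:**
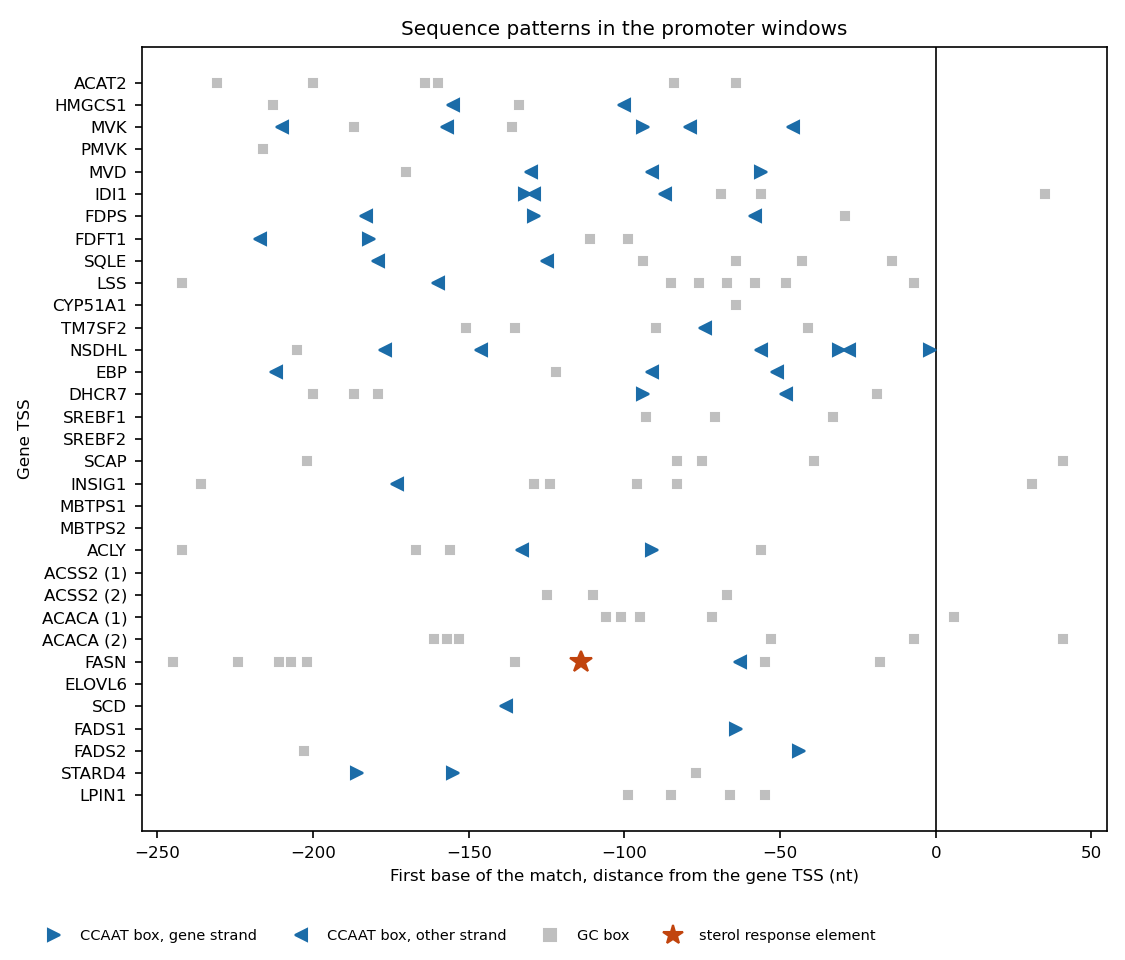
Each row is 1 of the 33 member gene TSSs and the x axis gives the distance in nt of the match from the gene TSS, marked by the line at 0. Blue arrowheads are CCAAT boxes pointing along their strand, grey squares GC boxes and the red star the sterol response element of FASN at 114 nt upstream; 12 of the 15 sterol synthesis rows, from ACAT2 to DHCR7, hold a CCAAT box.

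At the start itself, 21 of 33 member gene TSSs (63.6%, 45.1% to 79.6%) had a pyrimidine at the base before and a purine at the start, beside 66.1% of all. The role groups had unequal counts, with 14 of 15 in sterol synthesis (93.3%, 68.1% to 99.8%), 2 of 6 among SREBP genes (33.3%, 4.33% to 77.7%) and 3 of 10 in fatty acid synthesis (30%, 6.67% to 65.2%). PMVK was the sterol synthesis exception. With a shift of 1 nt allowed, the counts were 14, 4 and 7 (93.3%, 66.7% and 70%), beside 75.5% of all gene TSSs. Whether the role groups differ in this was not tested. CG and TA were found at 6 member gene TSSs each and CA at 4, beside 15.5%, 7.35% and 30.3% of all gene TSSs.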

How the data were processed

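Start-seq (2 libraries), RNA-seq (3), MNase-seq (1) and FAIRE-seq (1) were listed, and the files used were the TSS calls of Start-seq replicate 1 and the RNA-seq table. The authors trimmed adapters (cutadapt 1.2.1), aligned Start-seq reads to hg19 (Bowtie 0.12.8) and called TSSs with at least 5 reads at a nucleotide; uaTSSs were sought within 1000 nt and daTSSs within 2000 nt, with filters against uncalled gene starts. The deposited calls are positions without counts. The deposited FPKM values were estimated by the authors with TopHat2 2.0.4 and Cufflinks 2.2.1 after removal of duplicates and merging of 3 stranded poly-A replicates; 0 columns hold single samples. Depth is unknown.

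Each gene TSS was assigned to the GENCODE (lifted to GRCh37) gene starting nearest within 1000 nt on its strand (10366 of 10391). Genes with an FPKM were considered first, and other genes only where none of those started within 1000 nt, so a nearer gene without an FPKM was passed over. Through current or older symbols, 10225 gene TSSs received an FPKM. Islands exceeded 200 bp, 50% GC and an observed to expected CpG ratio of 0.6. Patterns were searched on both strands from 250 nt before to 50 nt after each gene TSS. Shares have exact Clopper-Pearson 95% intervals, and log2 medians a pseudocount of 0.1. Assignment and pattern search were tested on simulated data and recovered all 500 planted cases, the island search 197 of 200. All 33 members are named, in 4 role groups, with 11 further pathway genes; an item of the pathway is not reported here. Members and lists were named by their pathway, with no measured value in the rule, but with earlier results of these data known. Python 3.11.15, numpy 2.4.6, scipy 1.17.1 and pysam 0.24.0 were used.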

Additional observations from a re-analysis of the deposited data

How the results depend on the processing

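No paired analysis was possible because the expression table holds 1 merged value per gene and the TSS calls come from 1 Start-seq library, and for the same reason leaving out replicates could not be run. Over 11 results and 31 alternatives, 11 of them added after seeing the data, 29 changed little, a share staying inside the exact interval of the reported share and any other value within 1.5 times the reported one. With a pyrimidine-purine start allowed 1 nt to either side, the share of member gene TSSs was 81.8%, beside 75.5% of all, since the wider rule accepts more starts. With 1 mismatch in the sterol response element the share was 21.2%, beside 23.4% of all. The CCAAT share of members was 45.5% in the 150 nt before the gene TSS alone, 61.3% with 1 gene TSS per gene, and 66.7% from 500 nt before to 100 nt after, beside 25.3%, 35.3% and 51.1% of all. Among gene TSSs at or above 27.6 FPKM, it was 63.0% beside 37.3%. In that set the uaTSS shares were 66.7% and 58.9%, and the daTSS shares 18.5% and 29.8%. The interval of the daTSS share rests on 5 daTSSs of 1 library and contains the share over all gene TSSs.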
